A study of Homo sapiens with 2 samples.

Results

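The genes described here are 10 members of the KMT2 (MLL) histone methyltransferase complexes and their H3K27 demethylase partners, taken by symbol from the 33694 genes of the deposited matrix: the methyltransferases KMT2D, KMT2C and KMT2A, the demethylases KDM6A and KDM6B, and the subunits NCOA6, PAXIP1, PAGR1, ASH2L and WDR5. All 10 symbols were found, each once. The cells come from HMLER, an established line of human mammary epithelium made tumorigenic by introduced genes that include oncogenic RAS, and from its epithelial clone C1. C1-sgControl (the control line below) carried a control guide, C1-sgEED (the EED line) a guide against EED and C1-sgKMT2D (the KMT2D line) a guide against KMT2D. All 3 lines grew in 1 mix of MEGM, DMEM and F12 medium with insulin, EGF, hydrocortisone and antibiotics. The library titles speak of mixed clones with a knockout, and no source used here gives how many clones each line holds, the guide sequences or where the edits lie.

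KMT2D and KMT2C place mono-methylation on lysine 4 of histone H3 (H3K4) at enhancers, whereas KMT2A acts mostly at promoters, HOX genes among them. WDR5 and ASH2L belong to the core that all KMT2 enzymes share, and NCOA6, PAXIP1 and PAGR1 are found with KMT2C and KMT2D. The same complexes hold KDM6A (UTX), which removes methyl groups from lysine 27 of histone H3 (H3K27), the mark that the Polycomb complex PRC2 sets with the help of EED. KDM6B (JMJD3) removes the same mark and is known as a gene induced by inflammatory signals and differentiation.

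The lines were pooled in 1 gene expression library and 1 hashtag library, and a cell's line rests on a DNA barcode carried by an antibody. These barcodes are shown because each value below depends on them, in capitals over their full length of 15 bases:
Hashtag 1 (C1-sgControl): GTCAACTCTTTAGCG
Hashtag 3 (C1-sgEED): TTCCGCCTCTCTTTG
Hashtag 4 (C1-sgKMT2D): AGTAAGTTCAGCGTA
Any pair of the 3 barcodes differed at 10 or more positions. The median cell held 1528 counts of its own hashtag in the control line, 1384.5 in the EED line and 1604 in the KMT2D line, against medians of 13 to 17 for the highest of the other hashtags. A total of 1720, 2338 and 2348 cells were kept, with 9927122, 10256770 and 13957344 gene UMIs (unique molecular identifiers, each a counted transcript molecule). The filter on genes and mitochondrial UMIs removed 644 barcodes of the control line, 170 of the EED line and 147 of the KMT2D line. Without its mitochondrial limit the KMT2D line over the control was 0.963 for KMT2D, and the EED line over the control 0.585 for KDM6B. Each line is 1 sample, so no difference has a replicate check and no p-value is given. All intervals are exact 95% intervals, and they include no error beyond that of counting. The level is given in CPM, UMIs of a gene per 1000000 gene UMIs of the line, read at the 3' end and therefore not divided by gene length. Cells of all 3 lines had UMIs of all 25 epithelial marker genes, and the endothelial gene CDH5 and the immune genes PTPRC, CD3E and LYZ had 0 UMIs in each line. Other endothelial genes had a few UMIs, PECAM1 in all 3 lines, and the endothelial list summed to 0.430 to 0.877 CPM. The immune list summed to 14.8 to 20.05 CPM, nearly all of it CD68, a lysosomal membrane protein of macrophages (19.8, 14.7 and 15.3 CPM in the control, EED and KMT2D lines). The neural list summed to 8.10 to 24.3 CPM, nearly all of it SYT1, a calcium sensor of synaptic vesicles, at 13.4, 23.8 and 7.59 CPM. SYT1 was thus 1.78-fold higher in the EED line than in the control (1.43 to 2.21) and 1.76-fold lower in the KMT2D line (1.36 to 2.30), and its part in the results below was not tested.

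The 10 genes together took 165 CPM in the control line (157 to 173), 147 CPM in the EED line (140 to 155) and 170 CPM in the KMT2D line (163 to 177). In the control line the order of levels was KMT2A, KMT2C, KDM6B, WDR5, NCOA6, ASH2L, PAXIP1, KDM6A, KMT2D and PAGR1. KMT2A (49.0 CPM) and KMT2C (29.6) stood clear of each other and of the rest, while KDM6B (20.2), WDR5 (19.0) and NCOA6 (16.7) had overlapping intervals. The intervals of PAXIP1 (6.95), KDM6A (5.54) and KMT2D (4.63) also overlapped, and PAGR1 (0.806) was the lowest. The number of 3' tags per transcript can differ between genes, so this order is one of tags read. The variance of the UMIs over cells was 0.959 to 1.10 times that of a Poisson distribution with each cell's depth, over the 10 genes and 3 lines. At such low counts per cell this ratio stays near 1 even where levels differ between cells, so it does not show an even spread. KDM6B in the EED line gave 1.06, while groups of that line's cells read separately below stood at 18.0 and 4.503 CPM.

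**Figure D1:**
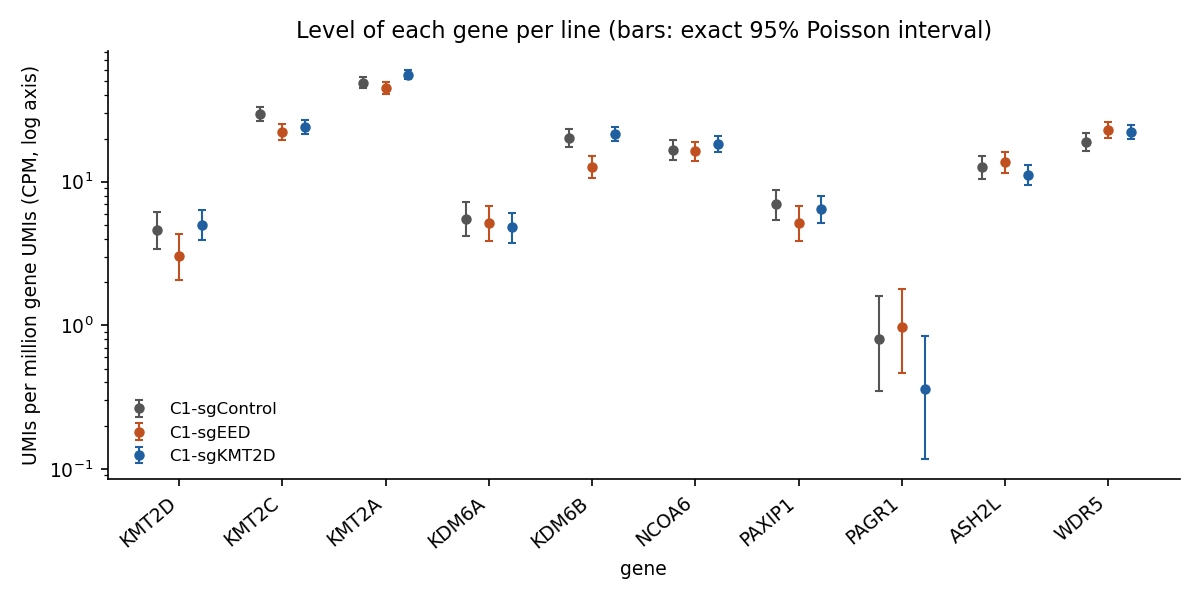
Level of the 10 genes in C1-sgControl, C1-sgEED and C1-sgKMT2D, in CPM on a log axis, with exact 95% Poisson intervals as bars. KDM6B is lower in C1-sgEED (12.7) than in the other lines (20.2 and 21.6), and PAGR1 lies under 1 CPM in all 3.

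KMT2D, the gene targeted in 1 of the lines (ENSG00000167548; GRCh38 chromosome 12, 49018975 to 49059774, minus strand), was read at the control level in its own knockout. It had 46 UMIs in the control line (4.63 CPM, 3.39 to 6.18), 31 in the EED line (3.02 CPM, 2.05 to 4.29) and 70 in the KMT2D line (5.02 CPM, 3.91 to 6.34). The 70 UMIs of the KMT2D line came from 68 cells. The ratio of the KMT2D line to the control line was 1.08, and its interval of 0.736 to 1.61 leaves out a loss of the transcript to less than 0.736 of the control level. Since the position of the edit is not known and the tag is read at the 3' end, this level does not check whether the protein was lost. In the EED line the level was 1.53-fold lower than in the control line, with an interval from 2.50-fold lower to 1.05-fold higher. Between the knockouts KMT2D was 1.66-fold higher in the KMT2D line (1.07 to 2.62). On cells thinned to 2000 UMIs the EED line over the control was 0.700 and the KMT2D line over the EED line 1.42, short of the 1.5-fold used below to count genes.

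KMT2C (ENSG00000055609; chromosome 7, 152134922 to 152436005, minus strand), the closest relative of KMT2D, was read a little lower in both knockouts. It had 294 UMIs in the control line (29.6 CPM, 26.3 to 33.2), 229 in the EED line (22.3 CPM, 19.5 to 25.4) and 337 in the KMT2D line (24.1 CPM, 21.6 to 26.9). That is 1.33-fold lower in the EED line (1.11 to 1.58) and 1.23-fold lower in the KMT2D line (1.05 to 1.44), both over the same control cells. Both intervals of the ratio lie below 1 when all cells and all gene UMIs of a line are counted. With a total without mitochondrial and ribosomal protein genes the KMT2D line over the control was 0.855. Of all genes tested, 15.3% were as low or lower in the EED line over the control, and 30.9% in the KMT2D line. In epithelial-range cells, described below, the KMT2D line over the control was 0.910, with an interval that includes no change (0.764 to 1.08). Among such cells of at least 5000 UMIs KMT2C was at 1.05 in the KMT2D line over the control and at 0.886 in the EED line. KMT2D made up 13.5% of the UMIs of KMT2C and KMT2D in the control line (10.1 to 17.6), 11.9% in the EED line (8.25 to 16.5) and 17.2% in the KMT2D line (13.7 to 21.2), and these intervals overlap. Parts of KMT2C have copies elsewhere in the genome, so its level is less certain than that of the other genes.

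KMT2A (ENSG00000118058; chromosome 11, 118436464 to 118526832, plus strand), the enzyme fused to other proteins in MLL leukaemia, was the most counted of the 10. It had 486 UMIs in the control line (49.0 CPM, 44.7 to 53.5), 460 in the EED line (44.8 CPM, 40.8 to 49.1) and 778 in the KMT2D line (55.7 CPM, 51.9 to 59.8). The ratio to the control was 0.916 in the EED line (0.805 to 1.04) and 1.14 in the KMT2D line (1.02 to 1.28). Between the knockouts it was 1.24 (1.11 to 1.40). Any difference of KMT2A beyond 1.40-fold thus lies outside all 3 intervals.

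Of the demethylases, KDM6B was read lower in the EED line, and KDM6A had overlapping intervals in all 3 lines. KDM6B (ENSG00000132510; chromosome 17, 7839904 to 7854796, plus strand) had 201 UMIs in the control line (20.2 CPM, 17.5 to 23.2), 130 in the EED line (12.7 CPM, 10.6 to 15.1) and 302 in the KMT2D line (21.6 CPM, 19.3 to 24.2). The interval of the EED line does not reach those of the other lines, whose intervals overlap. KDM6B was 1.60-fold lower in the EED line than in the control (1.27 to 2.01) and 1.71-fold higher in the KMT2D line than in the EED line (1.39 to 2.11), while the KMT2D line over the control was 1.07 (0.891 to 1.28). Of all genes tested, 7.53% were as low or lower in the first of these comparisons. KDM6A (ENSG00000147050; chromosome X, 44873177 to 45112602, plus strand) had 55 UMIs in the control line (5.54 CPM, 4.17 to 7.21), 53 in the EED line (5.17 CPM, 3.87 to 6.76) and 67 in the KMT2D line (4.80 CPM, 3.72 to 6.10). These intervals overlap throughout, and its ratios to the control were 0.933 (0.627 to 1.39) and 0.866 (0.597 to 1.26). Of the UMIs of both demethylases, KDM6A made up 21.5% in the control line (16.6 to 27%), 29% in the EED line (22.5 to 36.1) and 18.2% in the KMT2D line (14.4 to 22.5). In the control and EED lines the intervals of this share overlap, as do those of the ratios of KDM6A and KDM6B to the control. A different response of the demethylases is thus not shown against the control. Between the knockouts KDM6A was 0.929 in the KMT2D line over the EED line (0.638 to 1.36), an interval below that of KDM6B. The intervals of the share in the EED line (from 22.51%) and the KMT2D line (up to 22.48%) do not overlap either. They cover counting error only, and this difference was not tested.

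Of the partners of KMT2C and KMT2D, NCOA6 and PAXIP1 had intervals that include the control level in both knockout lines, and PAGR1 was too low to measure. NCOA6 (ENSG00000198646; chromosome 20, 34689097 to 34825649, minus strand), a nuclear receptor coactivator, had 166, 168 and 256 UMIs in the control line, the EED line and the KMT2D line, or 16.7 CPM (14.3 to 19.5), 16.4 (14.0 to 19.1) and 18.3 (16.2 to 20.7). Its gene overlaps PIGU on the same strand. PAXIP1 (ENSG00000157212; chromosome 7, 154943687 to 155003084, minus strand), a BRCT-domain protein that also acts in the DNA damage response, had 69, 53 and 90 UMIs, or 6.95 CPM (5.41 to 8.80), 5.17 (3.87 to 6.76) and 6.45 (5.19 to 7.93). For PAXIP1 the ratio of the EED line to the control was 0.743, and its interval of 0.510 to 1.08 leaves out a loss to less than 0.510 of the control level. As a mean over cells this ratio was 0.657, and on cells thinned to 2000 UMIs it was 0.633, both past 1.5-fold lower. The same ratio of NCOA6 was 0.980 (0.786 to 1.22). In the KMT2D line the ratios were 0.928 for PAXIP1 (0.670 to 1.29) and 1.10 for NCOA6 (0.899 to 1.34).

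PAGR1 (ENSG00000280789; chromosome 16, 29815952 to 29820117, plus strand), which binds PAXIP1, had 8 UMIs in the control line, 10 in the EED line and 5 in the KMT2D line, or 0.806 CPM (0.348 to 1.59), 0.975 (0.468 to 1.79) and 0.358 (0.116 to 0.836). Its ratio of the KMT2D line to the control was 0.445, with an interval from 0.114 to 1.54 that allows both a strong loss and a gain. The gene overlaps other annotated genes on its strand. On chromosome 16 only 4.31% of 209 genes of at least 20 CPM were higher in the KMT2D line than in the control line, with a median of -0.71 on the log2 scale, against a median of 0.00 over all 5343 such genes. The medians of the other chromosomes with a gene of the 10 ran from -0.07 to 0.08 in this comparison. Whether PAGR1 shares the shift of its chromosome was not detectable at this depth.

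Over all cells of each line, the shared core subunits had intervals that include the control level in both knockouts. WDR5 (ENSG00000196363; chromosome 9, 134135365 to 134159968, plus strand), the scaffold that binds the KMT2 enzymes, had 189, 236 and 309 UMIs in the control, EED and KMT2D lines, or 19.0 CPM (16.4 to 22.0), 23.0 (20.2 to 26.1) and 22.1 (19.7 to 24.8). Its ratios to the control were 1.21 (0.994 to 1.47) and 1.16 (0.967 to 1.40). ASH2L (ENSG00000129691; chromosome 8, 38105242 to 38144076, plus strand), which stimulates the methyltransferases, had 125, 140 and 156 UMIs, or 12.6 CPM (10.5 to 15.0), 13.7 (11.5 to 16.1) and 11.2 (9.49 to 13.1). Its ratios were 1.08 (0.846 to 1.39) and 0.888 (0.697 to 1.13). For both core genes a change of 1.5-fold in either direction lies outside these whole-line intervals. In epithelial-range cells, described below, the intervals of WDR5 reach past 1.5-fold. Its ratios there were 1.21 in the EED line (0.964 to 1.52) and 1.26 in the KMT2D line (1.04 to 1.54). Among such cells of at least 5000 UMIs they were 1.497 and 1.32. These cells had WDR5 at 18.1 CPM in the control (15.2 to 21.4), 27.1 in the EED line (21.8 to 33.3) and 23.8 in the KMT2D line (20.5 to 27.6).

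Counted together, few of the genes were far from the control. With at least 2 CPM in either line as the minimum, 9 of the 10 were measured in each comparison, PAGR1 being the exception. In the EED line over the control line 2 of 9, KMT2D and KDM6B, were at least 1.5-fold lower, where 9.69% of 11986 genes were that low, and 0 of 9 were that much higher (16.6% of genes). Their median log2 ratio was -0.13, against 0.10 for all genes. In the KMT2D line over the control line 0 of 9 were 1.5-fold higher (10.3% of 11629 genes) and 0 lower (17.4%), with a median of 0.10 against -0.04. In the KMT2D line over the EED line the same 2 genes, KMT2D and KDM6B, were at least 1.5-fold higher (4.59% of 11918 genes) and 0 lower (19.3%), with a median of 0.16 against -0.13. With so few genes a count of 2 against these shares is a description, and the first 2 comparisons share their control cells.

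**Figure D2:**
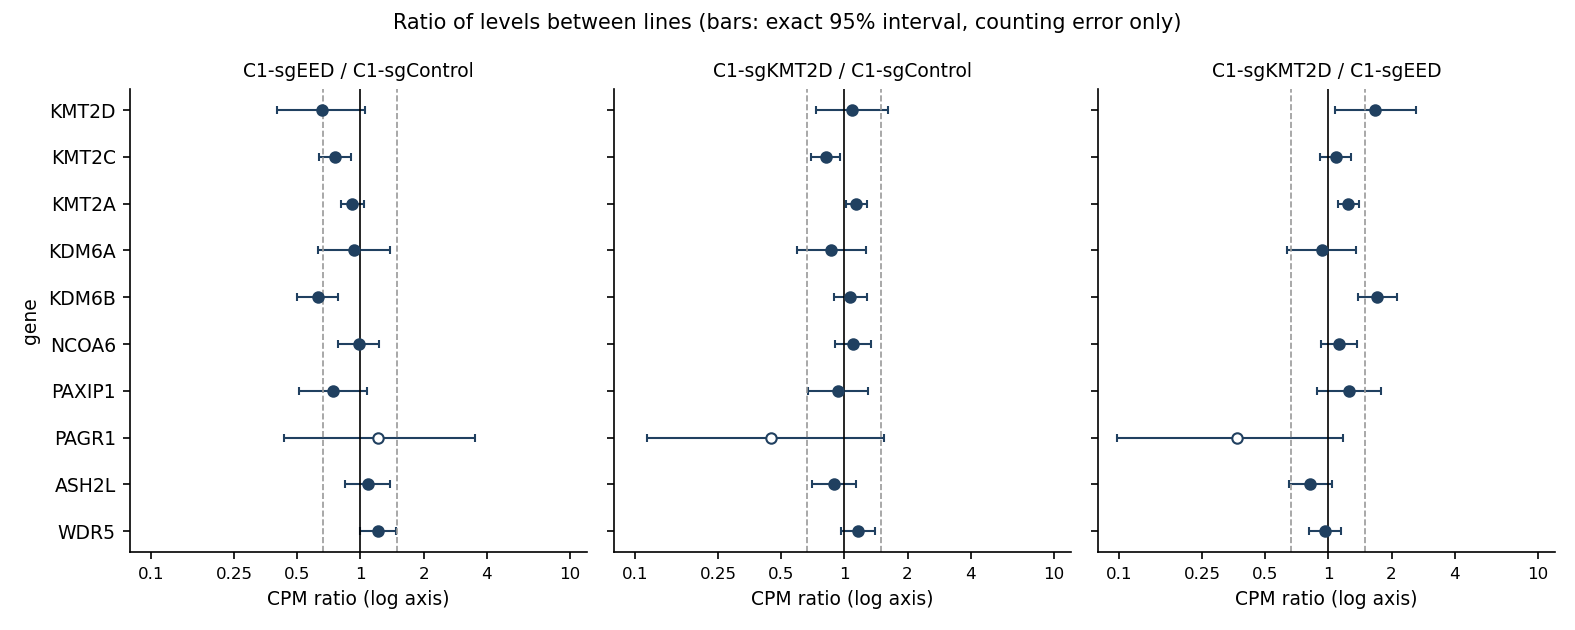
CPM ratios of the 10 genes between lines on log axes, with exact 95% intervals; dashed lines mark 1.5-fold, and open points are genes under 2 CPM in both lines. KDM6B lies at 0.626 in C1-sgEED over C1-sgControl and at 1.07 in C1-sgKMT2D over C1-sgControl, and the PAGR1 intervals are the widest.

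Cells of both knockout lines spread widely over a score of epithelial and mesenchymal marker genes, so the levels were also read within ranges of it. For each cell of at least 2000 UMIs, thinned to that number, an M share was computed from lists of 26 mesenchymal and 25 epithelial genes, none of them among the 10, as the mesenchymal part of the UMIs of both lists. Cells above the 99th percentile of the control line (0.538) form the mesenchymal range, which held 992 of 2171 EED-line cells, 933 of 2234 KMT2D-line cells and 16 of 1636 control-line cells. The ranges are intervals of a score, not cell types. Mesenchymal-range cells were shallower, with medians of 3538.5 UMIs in the EED line and 4413 in the KMT2D line, against 4530 and 6898 in the epithelial range. The 16 mesenchymal-range cells of the control line held 73321 UMIs in all, 5 of them of KDM6B (68.2 CPM, 22.1 to 159), and are not compared.

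KDM6B was low only in the mesenchymal range of the EED line among the 5 groups compared. It had 194 UMIs in epithelial-range control-line cells (19.9 CPM, 17.2 to 22.9), 108 in those of the EED line (18.0 CPM, 14.7 to 21.7) and 185 in those of the KMT2D line (20.04 CPM, 17.3 to 23.2). In the mesenchymal range it had 18 UMIs in the EED line (4.503 CPM, 2.67 to 7.12) and 114 in the KMT2D line (25.0 CPM, 20.7 to 30.1). The 3 epithelial-range intervals overlap, the mesenchymal range of the EED line lies below all others, and that of the KMT2D line overlaps the epithelial ranges. Within the EED line KDM6B was 3.99-fold lower in mesenchymal-range cells (2.41 to 6.99), and 5.40% of all 12250 genes tested were as low or lower. Within the KMT2D line the ratio was 1.249 (0.981 to 1.59), an interval that includes no change. Between the mesenchymal ranges KDM6B was 5.56-fold higher in the KMT2D line (3.37 to 9.72), a ratio that 1.04% of 11910 genes reached. In epithelial-range cells the ratio to the control was 0.902 in the EED line (0.706 to 1.15) and 1.01 in the KMT2D line (0.818 to 1.24), and the first of these was 1.16 among cells of at least 5000 UMIs. Depth moves with these ranges, and among cells of at least 5000 UMIs the ratio within the EED line was 3.59-fold lower (1.80 to 8.14), at 6.40 CPM against 23.0. Within the KMT2D line the same cells gave 28.9 CPM against 19.3, and their ratio of 1.498 had an interval above 1 (1.13 to 1.98). The median mitochondrial share was 6.66% in the mesenchymal and 8.69% in the epithelial range of the EED line, and its part in the result was not tested.

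**Figure D3:**
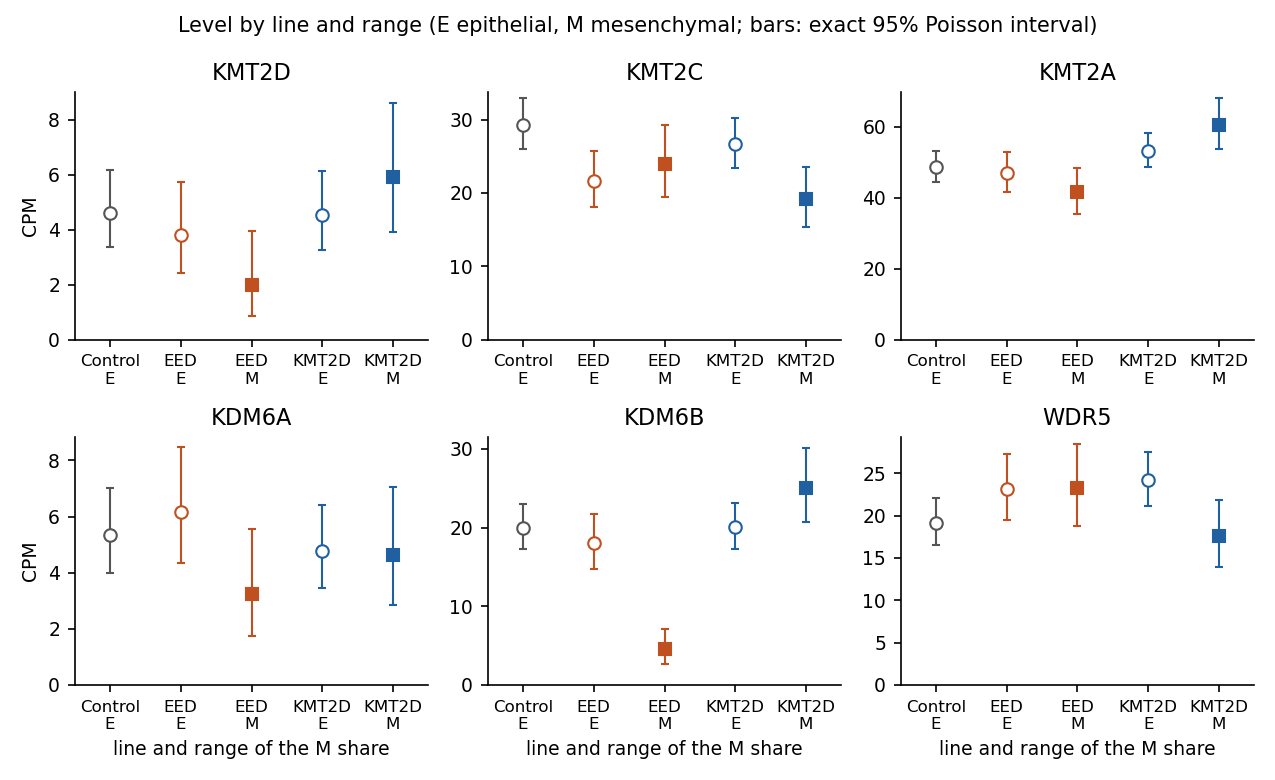
Levels (CPM, linear axes from 0, exact 95% Poisson intervals) of 6 of the genes in epithelial-range (open circles) and mesenchymal-range (filled squares) cells of each line. KDM6B stands at 4.503 CPM in mesenchymal-range C1-sgEED cells and between 18.0 and 25.0 in the other groups.

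Along the M share the KDM6B level of the EED line was low in both steps of the mesenchymal range. The 4 steps were chosen after the data were seen, with the bound between the ranges as an edge, so they do not show where along the M share the level changes. In cells with an M share of up to 0.2 it was 18.9 CPM (14.4 to 24.4), and from 0.2 to the bound 16.9 (12.5 to 22.4). From the bound to 0.8 it was 3.33 CPM (0.908 to 8.53; 4 UMIs in 280 cells) and above 0.8 it was 5.0 (2.74 to 8.40; 14 UMIs in 712 cells). The KMT2D line stood at 18.8, 20.9, 22.1 and 27.3 CPM in the same steps, with overlapping intervals.

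**Figure D4:**
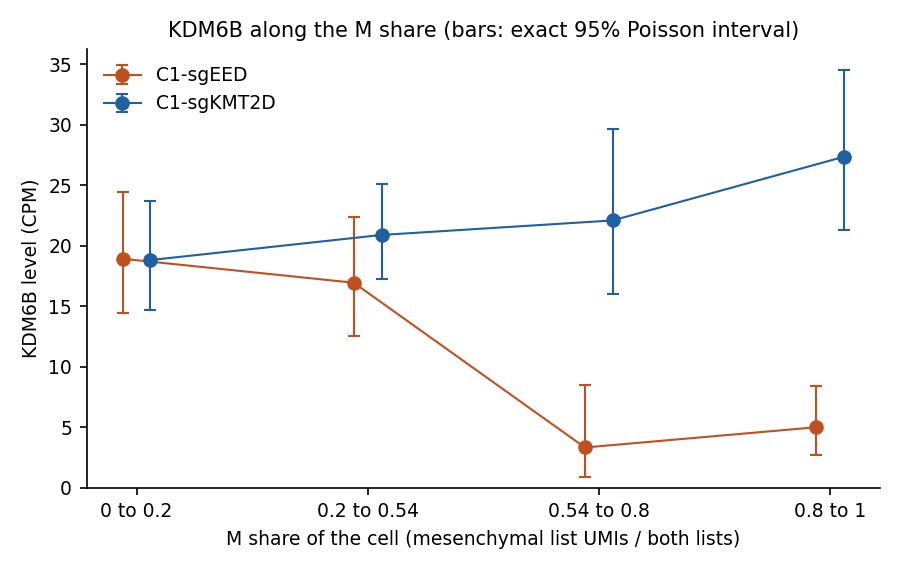
KDM6B level (CPM) in 4 steps of the M share in C1-sgEED and C1-sgKMT2D, with exact 95% Poisson intervals. The lines run together at 18.9 and 18.8 CPM in the lowest step and lie at 5.0 and 27.3 CPM in the highest.

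KDM6A and KMT2D were also read lower in mesenchymal-range EED-line cells, on counts too small to settle it. KDM6A had 13 UMIs there (3.25 CPM, 1.73 to 5.56) against 37 in the epithelial range (6.16 CPM, 4.33 to 8.49), a ratio of 0.528 (0.258 to 1.02). KMT2D had 8 UMIs (2.00 CPM, 0.864 to 3.94) against 23 (3.83 CPM, 2.43 to 5.74), a ratio of 0.523 (0.202 to 1.21). Both intervals include no change. Among cells of at least 5000 UMIs the ratios were 0.726 and 0.734, short of 1.5-fold, and NCOA6 was at 0.492 (0.248 to 0.903) where all cells gave 0.914. With KDM6B, 3 of the 9 measured genes were at least 1.5-fold lower in this comparison, where 20.9% of 12250 genes were, and 0 higher (17.4%).

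Within the KMT2D line 0 of 9 genes were 1.5-fold higher in the mesenchymal range (13.0% of 11459 genes) and 0 lower (12.9%). KMT2C was at 19.1 CPM in the mesenchymal range (15.3 to 23.6) and 26.7 in the epithelial range (23.4 to 30.2), 1.39-fold lower (1.09 to 1.80), and WDR5 at 17.6 (13.9 to 21.9) against 24.2 (21.1 to 27.6), 1.37-fold lower (1.06 to 1.80). Among cells of at least 5000 UMIs KMT2C was at 0.656 (0.475 to 0.891) and so past 1.5-fold, while WDR5 was at 0.932 (0.689 to 1.247), an interval that includes no change. KMT2D itself was at 5.93 CPM (3.91 to 8.63) against 4.55 (3.28 to 6.15), with a ratio of 1.30 (0.773 to 2.16). KMT2A stood at 60.6 CPM (53.7 to 68.2) against 53.3 (48.7 to 58.2), and PAGR1 had 0 UMIs in the mesenchymal range, where 3 UMIs would be 0.659 CPM and the exact upper limit is 0.810 CPM, against 5 UMIs in the epithelial range. In the EED line neither KMT2C (24.0 against 21.6 CPM) nor WDR5 (23.3 against 23.1) had an interval away from no change. Whether the lines differ in these 2 genes was not tested.

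Between the mesenchymal ranges of the 2 knockouts, 2 of 9 genes were at least 1.5-fold higher in the KMT2D line (14.6% of 11910 genes) and 0 lower (25.1%). They were KDM6B and KMT2D, the latter 2.96-fold higher (1.31 to 7.55) on 27 and 8 UMIs. KMT2A was 1.46-fold higher (1.2 to 1.78). Between the epithelial ranges 0 of 9 genes were 1.5-fold higher in the EED line than in the control (14.0% of 11822 genes) and 0 lower (6.56%). The KMT2D line had 0 of 9 higher (8.44% of 11491 genes) and 0 lower (17.0%). There KMT2C was 1.35-fold lower in the EED line (1.10 to 1.68), and WDR5 was 1.26-fold higher in the KMT2D line (1.04 to 1.54). KMT2C in the KMT2D line over the control was 0.910 in these cells, with an interval of 0.764 to 1.08 that includes no change.

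Other subunits and the opposing enzymes give the background of the pathway. A list of 12 genes, all measured, held further subunits of KMT2 and SET1 complexes along with KMT2E and PSIP1. Of these 2 were at least 1.5-fold higher and 0 lower in the EED line over the control (median 0.03 log2). In the KMT2D line 2 were higher and 1 lower (median 0.06). Over all genes 16.6% were that much higher and 9.69% lower in the EED line, and 10.3% higher and 17.4% lower in the KMT2D line, so these counts and those of the lists that follow are near the shares of all genes or rest on 1 or 2 genes. PSIP1, which tethers KMT2A with menin to chromatin, was at 81.8 CPM in the control line, 143 in the EED line and 144 in the KMT2D line, or 1.75-fold (1.60 to 1.90) and 1.76-fold higher (1.62 to 1.91). The others, named after their values were seen, were HCFC2 (3.63 CPM in the control, 6.34 and 5.45 in the knockouts) and SETD1A (6.45 CPM against 3.73 in the KMT2D line). The core subunits RBBP5 and DPY30 stood at 8.46 and 105 CPM in the control, 9.07 and 119 in the EED line and 9.60 and 108 in the KMT2D line.

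A list of H3K4 demethylases and their cofactors, RCOR1, RCOR3 and PHF21A among them, had 8 measured genes. In the KMT2D line 0 of these passed 1.5-fold (median -0.11). In the EED line 1 was at least 1.5-fold lower and 0 higher (median -0.27). The 1 was KDM5B, at 34.7 CPM against 53.4, or 1.54-fold lower (1.34 to 1.76). CREBBP, an acetyltransferase that marks the same enhancers, was at 17.5 CPM in the control line, 18.0 in the EED line and 9.67 in the KMT2D line, 1.81-fold lower than the control (1.44 to 2.29). It was the 1 of 2 genes of CBP and p300 that passed 1.5-fold in the KMT2D line, and 0 of 2 passed in the EED line. CREBBP (3725054 to 3880726) and SETD1A (30957294 to 30984664) lie on chromosome 16, whose genes were lower in this line as given above. In the PRC2 core, EED was at 13.6, 13.4 and 15.3 CPM in the control, EED and KMT2D lines. EZH2, the enzyme that sets the mark that KDM6A and KDM6B remove, was at 14.4, 26.4 and 19.8 CPM, 1.83-fold higher in the EED line than in the control (1.49 to 2.26). It was the only 1 of 6 PRC2 genes past 1.5-fold there, and 0 of 6 were in the KMT2D line.

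A pattern over groups could be compared for KMT2C and KMT2A only, which had at least 50 UMIs in each of 7 groups (the epithelial range of the 3 lines and of the cells with hashtag 2, and the mesenchymal range of the EED line, the KMT2D line and hashtag 2). Of 7165 genes of at least 10 CPM, those with the highest Pearson r of log2(CPM + 1) were PACS1 (0.990), IFNAR1 (0.983) and AP4M1 (0.982) for KMT2C, and TRNAU1AP (0.996), C9orf114 (0.993) and RPS7 (0.986) for KMT2A. They are the highest of many over 7 points from 1 library, and are given as a description. KMT2A was lowest in the groups of hashtag 2 (20.4 and 23.3 CPM, against 41.5 to 60.6 in the others). KMT2C was lowest there too (17.8 and 12.8 CPM, against 19.1 to 29.3). These r values thus include the difference of hashtag 2 from the lines, and not only patterns over knockouts and ranges.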

How the data were processed

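The values are UMI counts per feature and barcode, deposited by the authors. The submitters' processing notes name Cell Ranger 3.0.2, a version the file header also gives, and build GRCh38. No source used here gives the annotation or the use of strand in counting, so the genes that overlap others on either strand, which are all of the 10 but KDM6A and KDM6B, are less certain, as is KMT2C for its partial copies. The matrix has 10336 barcodes, of which 9193 had at least 500 genes and at most 20% mitochondrial UMIs. Hashtags were called on log10(count + 1) with a Gaussian mixture of 2 components (scikit-learn 1.9.0), positive where the upper component was the likelier. Barcodes positive for several hashtags (827) or none (26) were left out. Doublets within a hashtag are not seen and stayed in.

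UMIs were summed per line or range and scaled to CPM. Intervals are exact: Poisson for a level, conditional binomial for a ratio and Clopper-Pearson for a share (scipy 1.17.1). There is no pseudocount except in log2(CPM + 1). On simulated counts the ratio intervals covered the true value for 95.6% of 11531 genes in C1-sgEED over C1-sgControl. The simulated counts were drawn from the Poisson model that the intervals assume. The coverage therefore checks the calculation only, not whether the model holds for these cells. Positions are from GENCODE 29. The 10 genes and the lists were chosen with earlier results of these data known. Named are the 10 genes, RBBP5, DPY30, EED, EZH2 and list genes of at least 10 CPM past 1.5-fold. Alternatives were the cell filter, line call, total, centring, mean over cells, thinning, M bound, depth and fold.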

Additional observations from a re-analysis of the deposited data

Results flagged for a closer look

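KDM6B is singled out because its ratio lay below 1 in 1 knockout line and above 1 in the other, with separate intervals. Its ratio of mesenchymal-range over epithelial-range cells was 0.251 (0.143 to 0.415) within C1-sgEED and 1.249 (0.981 to 1.59) within C1-sgKMT2D. The second interval includes no change. KMT2D (0.523 and 1.30) and KMT2A (0.882 and 1.14) also lay on opposite sides of 1, with overlapping intervals. So did KMT2C, PAXIP1 and WDR5 in the reverse direction. The intervals of KDM6B do not overlap, but they cover counting error only, each line is 1 sample, and the difference between the lines was not tested.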

How the results depend on the processing

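Of 323 ratios of single genes recomputed under the alternatives, 317 stayed within the interval of the reported value, 6 moved outside it and 0 with a difference past 1.5-fold changed direction. The ratio of KMT2D in C1-sgKMT2D over C1-sgControl ran from 0.963 without a mitochondrial limit to 1.32 with the strict cell filter. The count of genes past the fold moved mostly with the fold itself. With a difference of 25% as the fold it was 4 in C1-sgEED over C1-sgControl, all lower, where 18.7% of all genes were that low. It was 5 between the ranges within C1-sgKMT2D, 1 higher and 4 lower (23.3% and 24.1% of genes). Between epithelial ranges it was 2 lower in C1-sgEED than in the control (15.6% of genes) and 1 higher in C1-sgKMT2D than in the control (20.6%). At 2-fold it was 0 in C1-sgEED over C1-sgControl, 0 in C1-sgKMT2D over C1-sgEED and 1 (KDM6B) between the ranges within C1-sgEED, where 12.1% of genes were that low. On cells thinned to 2000 UMIs the count in C1-sgKMT2D over C1-sgEED was 1 (KDM6B). Among cells of at least 5000 UMIs it was 1 within C1-sgKMT2D (KMT2C, ratio 0.656). KDM6B kept a ratio of 0.481 to 0.622 in C1-sgEED over C1-sgControl and of 0.243 to 0.279 between the ranges within C1-sgEED under the alternatives run. Depth limits PAGR1 (5 to 10 UMIs per line) and the ranges for KMT2D and KDM6A most. No paired analysis was possible because each line is 1 sample.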

Other observations

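The labels give no line for hashtag 2, so its 1934 cells (11297540 gene UMIs) enter no comparison between lines, and only the description of genes with a pattern like that of KMT2C or KMT2A uses them. Of the methyltransferases, KMT2D was read there at 2.83 CPM (1.94 to 4.00), KMT2C at 16.4 (14.1 to 18.9) and KMT2A at 21.7 (19.1 to 24.6). Of the demethylases, KDM6A was at 7.35 CPM (5.85 to 9.11) and KDM6B at 14.9 (12.7 to 17.3), so that KDM6A made up 33.1% of their UMIs (27.3 to 39.3). NCOA6 stood at 11.2 CPM, PAXIP1 at 5.13, PAGR1 at 0.354, ASH2L at 8.76 and WDR5 at 13.1. All 10 genes together took 102 CPM (95.8 to 108). In 804 of 1856 cells the M share was in the mesenchymal range, where KDM6B was at 13.1 CPM (9.75 to 17.1), against 16.0 (13.2 to 19.2) in the epithelial range.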
